A study of Saccharomyces cerevisiae with 24 samples.

Results

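NDL1 (YLR254C) encodes the budding yeast homologue of NudE, a partner of the dynein regulator Pac1. Its transcript was followed here together with those of 9 other genes that act on the mitotic spindle, across yeast strains in which the transcriptional repressors Yhp1 and Yox1 were either mutated or deleted. The 10 genes were PAC1, DYN1 and NUM1 of the dynein pathway, the kinesins KIP1, CIN8, KIP2, KIP3 and KAR3, and the microtubule bundler ASE1, of 7126 genes measured in all. NDL1 was selected on its measured level, which was lower in the double phosphomutant and higher in the double deletion mutant, so its values are given as a description without a test. The other 9 were taken for their role, although with earlier results of these data known, and their tests are read with that limit.

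RNA-seq was performed on 24 samples in 2 sets of 12, with 3 biological replicates per strain. The phosphomutant set held the single mutants yhp1-13A and yox1-9A and the double mutant yhp1-13A yox1-9A, which carry mutated Cdk1 phosphorylation sites in 1 or both repressors, and a wild type collected alongside them. The deletion set held yhp1Δ, yox1Δ and yhp1Δ yox1Δ cells and a second collection of the same wild-type strain. All strains were MATa ura3∆0 leu2∆0 and, by the sample labels, his3∆0, where the study's strain list has another his3 allele, and they grew asynchronously in rich medium with 2% dextrose. All carried met15∆0, apart from yhp1Δ, which carried lys2∆0. The wild type itself carried tags at both loci, YOX1-3V5-KanMx and YHP1-13MYC-LEU2. The yhp1-13A strain carried yhp1-13A-13MYC-LEU2 with untagged YOX1, the yox1-9A strain carried yox1-9A-3V5-KanMx with untagged YHP1, and the double phosphomutant carried both alleles. The deletion strains carried yhp1∆::LEU2, yox1∆::KanMX, or yox1∆::NatMX with yhp1∆::LEU2. A tag or marker therefore changed together with the mutation in several comparisons, and their effects cannot be told apart.

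Cytoplasmic dynein is a minus-end-directed motor that, in budding yeast, pulls the mitotic spindle into the bud neck from the cell cortex. Pac1 and Ndl1 help to bring dynein to microtubule plus ends, and Num1 anchors it at the cortex. Kinesin-5 motors push spindle poles apart, Kip2, Kip3 and Kar3 act on microtubule length and transport, and Ase1 bundles the overlapping microtubules of the spindle midzone. Yhp1 and Yox1 are paralogous homeodomain proteins that repress genes at sites bound by the MADS-box factor Mcm1.

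NDL1 lies on chromosome XII at positions 644404 to 644973 on the minus strand of the RefSeq R64 assembly, and no annotated gene overlaps any of the 10 genes there. The promoter of NDL1 is shown because the results turn on this gene. That of ASE1 is shown beside it because ASE1 was the only one of the 10 with the exact letters TAATTA, used here as the homeodomain core. Both run 5′ to 3′ along the gene, from 250 bases before the start codon to the first 50 bases of the coding sequence, with capitals marking TAATTA and the Mcm1 core (CC and GG with 6 bases between them). The NDL1 window is chrXII:644924-645223 and the ASE1 window is chrXV:436296-436595, both on the minus strand of RefSeq R64.
NDL1: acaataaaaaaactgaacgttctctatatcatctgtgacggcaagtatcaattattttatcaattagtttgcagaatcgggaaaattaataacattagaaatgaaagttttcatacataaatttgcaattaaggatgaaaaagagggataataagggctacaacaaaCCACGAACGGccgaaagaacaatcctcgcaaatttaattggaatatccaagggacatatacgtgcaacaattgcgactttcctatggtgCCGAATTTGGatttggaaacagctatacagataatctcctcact
ASE1: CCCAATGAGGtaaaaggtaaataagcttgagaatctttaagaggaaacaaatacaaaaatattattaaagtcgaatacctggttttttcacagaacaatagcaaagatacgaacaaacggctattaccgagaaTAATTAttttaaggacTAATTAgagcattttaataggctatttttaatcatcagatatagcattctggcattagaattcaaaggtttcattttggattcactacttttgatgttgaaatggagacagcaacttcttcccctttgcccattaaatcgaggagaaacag

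Short motifs were searched on both strands of these 300-base windows, and a match is a description of the letters only. Counting the A of the start codon as 1, NDL1 had an Mcm1 core at −83 to −74 and another inside its coding sequence at 7 to 16, and no TAATTA. Only these exact letters were counted, and variants such as the caatta printed in the NDL1 window were not. The Mcm1 core, which reads the same on both strands, was found in 5 of the 10 windows (NDL1, PAC1, KIP2, KAR3 and ASE1) and in 29.2% of 6001 promoters genome-wide. TAATTA, also the same on both strands, was found in 1 of the 10 and in 15.3% of all promoters. The forkhead core TAAACA was found in 6 of the 10, with 4 matches in KIP1, and in 28.1% of all promoters.

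Expression is given in TPM, a transcript share scaled for gene length and library depth that can be compared between genes. Each sample held 17.0 to 18.9 M fragments, recovered from the TPM values, and each of the 10 genes had 292 to 3874 fragments in every sample. The strains showed the RNA of a-type haploid cells, with 6942 to 14638 TPM summed over 6 a-cell genes and 28.4 to 42.4 TPM over 4 alpha-cell genes. That a-cell sum was 7148 to 8361 TPM in the double phosphomutant, 6942 to 8290 TPM in yox1-9A and 7715 to 10284 TPM in yhp1-13A. In their wild type it was 10345 to 10870 TPM. MFA1 and MFA2 made up most of the sum, at means of 2403 and 3739 TPM in the double phosphomutant and 3649 and 5566 TPM in wild type. The median log2 change of the 6 genes was −0.0080 in the double phosphomutant (all genes −0.12), −0.22 in yox1-9A (−0.083) and 0.015 in yhp1-13A (−0.11). None of the 6 was called, beside 0.0158% of all genes in the double phosphomutant, 0.285% in yox1-9A and 0% in yhp1-13A. The part of these 6 genes in the NDL1 values was not tested. Samples of 1 strain also differed along a common axis that took 63.3% of the variance among replicates of the phosphomutants and their wild type, and 43.9% among those of the deletion strains and theirs. A term for the sign of each sample on this axis changed the call of CIN8 and of NUM1 in 1 comparison each, given with those genes.

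In the phosphomutant set, NDL1 expression was lowest in the double mutant. The values were 34.2, 25.6 and 27.9 TPM in yhp1-13A yox1-9A, against 51.5, 52.5 and 37.7 TPM in wild type. No double mutant sample reached the level of any wild-type sample, although the highest mutant sample, at 34.2 TPM, came close to the lowest wild-type sample, at 37.7 TPM. The means were 29.2 ± 4.44 TPM in the double mutant and 47.3 ± 8.25 TPM in wild type (SD, n = 3 each), and the fitted change on the log2(TPM + 1) scale was −0.67 (SE 0.19). The median gene changed by −0.12 in the same comparison, so NDL1 was −0.55 relative to it. Of all tested genes, 3.42% lay wholly below wild type in the double mutant.

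The single phosphomutants lay between the double mutant and wild type. NDL1 was at 41.5, 31.9 and 34.8 TPM in yhp1-13A and at 37.9, 42.3 and 27.2 TPM in yox1-9A. Against wild type the fitted log2 changes were −0.37 in yhp1-13A and −0.40 in yox1-9A (SE 0.19 each), and both ranges overlapped that of wild type. Without the third yox1-9A replicate the yox1-9A change was −0.22, and without the third wild-type replicate it was −0.55. Same-numbered samples of yox1-9A and wild type deviated together, and NDL1 was lower in yox1-9A in 3 of 3 such pairs, as were 38.6% of all genes. Ordered by mean, NDL1 stood at 29.2 TPM in the double mutant, 35.8 TPM in yox1-9A, 36.1 TPM in yhp1-13A and 47.3 TPM in wild type, and each neighbouring pair in this order had overlapping samples. The double mutant differed from yhp1-13A by −0.30 and from yox1-9A by −0.27 on the log2 scale (SE 0.19 each), with overlapping samples in both comparisons. Same-numbered samples of the double mutant and yhp1-13A also deviated together, and these SE take no account of that. NDL1 was lower in the double mutant in each such pair, at 34.2 against 41.5, 25.6 against 31.9 and 27.9 against 34.8 TPM. The share of all genes lower in every such pair was not counted. With 1 sample left out, the difference from yhp1-13A ran from −0.41 to −0.19 and that from yox1-9A from −0.45 (without the third yox1-9A replicate) to −0.14 (without the second).

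In the deletion set, NDL1 was about as abundant in each single mutant as in wild type and was higher in every sample when both repressors were absent. It was at 106.6, 107.0 and 99.8 TPM in yhp1Δ yox1Δ, against 58.4, 42.1 and 58.4 TPM in wild type. The lowest double mutant sample lay well above the highest of the other 9 samples of the set, which was 68.4 TPM in a yox1Δ replicate. The means were 104.5 ± 4.05 TPM in the double mutant and 53.0 ± 9.42 TPM in wild type, a fitted log2 change of 0.98 (SE 0.21). Of all tested genes, 4.80% lay wholly above wild type in the double mutant.

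**Figure D1:**
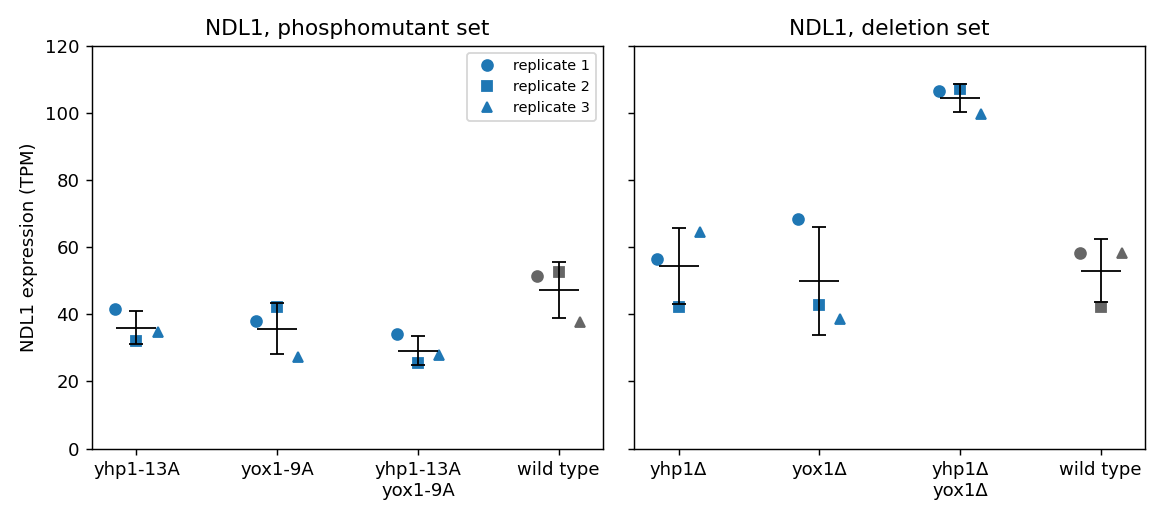
NDL1 expression in TPM (vertical axis) in each replicate (symbols) of the phosphomutant strains (left panel) and the deletion strains (right panel), each beside its wild type, with the mean and SD as bars. The double phosphomutant samples sit at 25.6 to 34.2 TPM, below all wild-type samples of their set, and the double deletion samples sit at 99.8 to 107.0 TPM, above all others. Of all tested genes, 3.42% lay wholly below wild type in the double phosphomutant and 4.80% wholly above it in the double deletion.

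The single deletions had 56.5, 42.3 and 64.5 TPM of NDL1 in yhp1Δ and 68.4, 42.7 and 38.7 TPM in yox1Δ. Their means of 54.4 ± 11.3 TPM in yhp1Δ and 49.9 ± 16.1 TPM in yox1Δ (SD, n = 3 each) fell on either side of wild type, and all 3 strains overlapped. The fitted log2 changes against wild type were 0.034 in yhp1Δ and −0.11 in yox1Δ (SE 0.21 each). The double deletion exceeded yhp1Δ by 0.95 and yox1Δ by 1.09 on the same scale (SE 0.21 each). The departure of the double mutant from the sum of both single changes was 1.06 (SE 0.30) for the deletions and 0.10 (SE 0.27) for the phosphomutants. The double mutant values on which NDL1 was selected enter this departure, so it is a description and no test.

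PAC1 (YOR269W, chromosome XV, 826385 to 827869, plus strand) encodes the LIS1 homologue with which Ndl1 works, and its transcript stayed within a narrow range. It averaged 31.0 ± 2.35 TPM in yhp1-13A yox1-9A and 31.5 ± 2.75 TPM in wild type, and 28.6 ± 2.92 TPM in yhp1Δ yox1Δ and 31.1 ± 4.65 TPM in wild type (SD, n = 3 each). The log2 change was −0.021 in the double phosphomutant (limma adjusted p = 0.96) and −0.11 in the double deletion (adjusted p = 0.98), and neither was called. Across all 24 samples PAC1 lay between 23.9 and 37.5 TPM, whereas NDL1 lay between 25.6 and 107.0 TPM.

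Because both values are scaled for length, the NDL1 level can be read against that of PAC1 in the same sample. The ratio of NDL1 to PAC1 TPM was 1.04, 0.90 and 0.88 in yhp1-13A yox1-9A, against 1.498, 1.68 and 1.31 in wild type. It was 3.55, 3.51 and 3.96 in yhp1Δ yox1Δ, against 1.81, 1.20 and 2.24 in wild type. The double mutant did not overlap wild type in either set, and the double deletion had the most NDL1 transcript per PAC1 transcript of all strains. How many other gene pairs separate in this way was not counted. Among the single mutants the NDL1 to PAC1 ratio averaged 1.10 ± 0.023 in yhp1-13A and 1.14 ± 0.23 in yox1-9A, and it was 1.98 ± 0.69 in yhp1Δ and 1.68 ± 0.74 in yox1Δ. It is set by the NDL1 values on which the gene was selected, and so is no independent evidence of their direction.

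**Figure D2:**
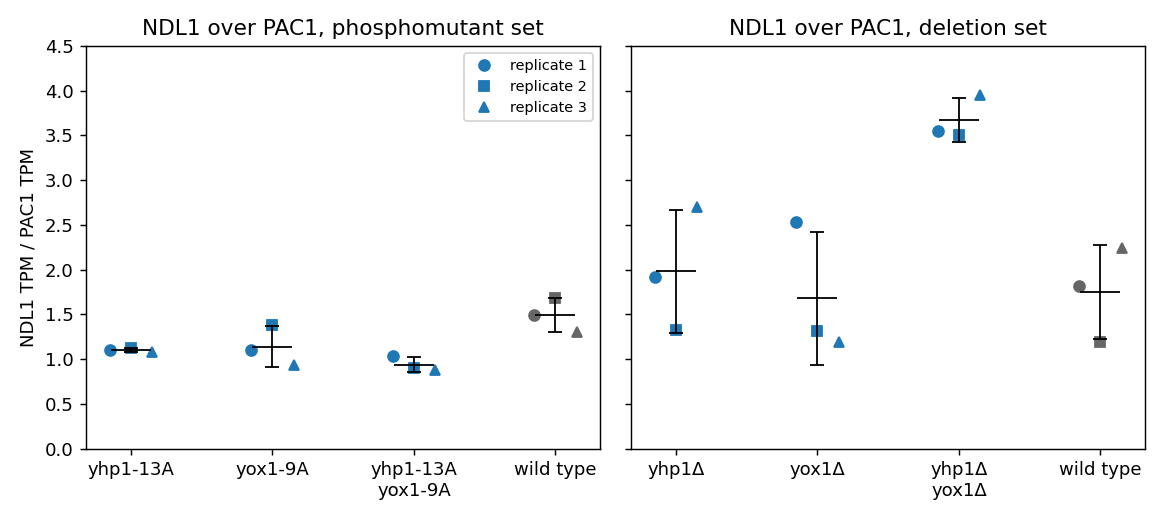
Ratio of NDL1 TPM to PAC1 TPM (vertical axis, no unit) in each replicate (symbols), with the mean and SD as bars, for the phosphomutant strains (left panel) and the deletion strains (right panel). Ratios are 0.88 to 1.04 in the double phosphomutant and 3.51 to 3.96 in the double deletion, and wild type lies at 1.31 to 1.68 and at 1.20 to 2.24 in the matching sets.

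DYN1 (YKR054C, chromosome XI, 535647 to 547925, minus strand), the dynein heavy chain, was the least abundant of the 10 transcripts per length. It averaged 5.48 ± 1.21 TPM in yhp1-13A yox1-9A and 5.74 ± 1.18 TPM in wild type, and 5.78 ± 0.13 TPM in yhp1Δ yox1Δ and 5.66 ± 0.63 TPM in wild type (SD, n = 3 each). Its log2 change was −0.057 in the double phosphomutant (limma adjusted p = 0.93) and 0.030 in the double deletion (adjusted p = 0.99). Neither difference exceeded the spread between replicates, and DYN1 turned sign under median-of-ratios scaling in the double phosphomutant (0.054) and with a term for the common axis in the double deletion (−0.015).

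NUM1 (YDR150W, chromosome IV, 755628 to 763874, plus strand), the cortical anchor of dynein, was the only 1 of the 9 whose double deletion samples all lay above wild type. It was at 19.8, 19.2 and 18.2 TPM in yhp1Δ yox1Δ, against 17.4, 14.6 and 16.9 TPM in wild type. The log2 change of 0.21 (SE 0.13, 95% interval −0.060 to 0.49) was not called, with a limma adjusted p of 0.98. Against yox1Δ alone, which had 18.0, 14.3 and 13.5 TPM, NUM1 was again above in every sample, as were 18.3% of all genes, with a log2 change of 0.31 (SE 0.13, unadjusted p = 0.029 and adjusted p = 0.37 in limma). A term for the common axis, whose sign was estimated from these same samples, gave NUM1 an adjusted p of 0.074 at the same fold change in that comparison, in which it called 1017 of all genes. In the phosphomutant set NUM1 was at 18.8, 14.9 and 11.5 TPM in the double mutant and at 20.5, 20.9 and 11.5 TPM in wild type, which overlapped.

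CIN8 (YEL061C, chromosome V, 36535 to 39537, minus strand) and KIP1 (YBL063W, chromosome II, 101886 to 105221, plus strand) encode the kinesin-5 motors. CIN8 had the lowest relative level of the 9 in yox1-9A cells, at 9.36, 12.6 and 5.56 TPM, against 16.1, 18.3 and 10.4 TPM in wild type. Its log2 change there was −0.67 (SE 0.30, 95% interval −1.32 to −0.025), with an unadjusted p of 0.043 and an adjusted p of 1.0 in limma, so it was not called. The ranges overlapped, and CIN8 was lower in yox1-9A in 3 of 3 same-numbered pairs, as were 38.6% of all genes. For CIN8, limma with a replicate block gave an adjusted p of 0.25. A term for the common axis gave an adjusted p of 0.049 at the same fold change and called 104 of all genes, and in the other alternatives the adjusted p ran from 0.25 to 1.0. With 1 sample left out, the CIN8 change ran from −0.91 (without the second yox1-9A replicate) to −0.39 (without the third). In the double mutant that also carries yox1-9A, CIN8 was at 15.1, 10.04 and 9.34 TPM, a log2 change of −0.34 against wild type (adjusted p = 0.83).

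CIN8 averaged 15.2 ± 0.36 TPM in yhp1Δ yox1Δ and 13.4 ± 2.14 TPM in wild type (SD, n = 3 each), a log2 change of 0.19 (limma adjusted p = 0.98). KIP1 changed by −0.45 in yox1-9A, −0.052 in the double phosphomutant and 0.075 in the double deletion. Its means were 9.30 ± 2.02 TPM in yhp1-13A yox1-9A and 9.66 ± 1.93 TPM in wild type, and 11.8 ± 1.04 TPM in yhp1Δ yox1Δ and 11.3 ± 1.77 TPM in wild type. Neither kinesin-5 gene passed the test in any comparison without that term.

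KIP2 (YPL155C, chromosome XVI, 257216 to 259336, minus strand) encodes a kinesin that carries dynein regulators towards microtubule plus ends, and KIP3 (YGL216W, chromosome VII, 84885 to 87302, plus strand) the kinesin-8 that shortens microtubules. KIP2 averaged 11.2 ± 2.67 TPM in yhp1-13A yox1-9A and 12.8 ± 2.15 TPM in wild type, and 11.5 ± 1.09 TPM in yhp1Δ yox1Δ and 11.1 ± 2.19 TPM in wild type (SD, n = 3 each). KIP3 averaged 20.7 ± 2.93 TPM in yhp1-13A yox1-9A and 22.1 ± 3.89 TPM in wild type, and 24.2 ± 0.94 TPM in yhp1Δ yox1Δ and 23.9 ± 2.41 TPM in wild type. All of these differences were smaller than the SD of the wild-type samples.

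KAR3 (YPR141C, chromosome XVI, 815734 to 817923, minus strand) encodes the minus-end-directed kinesin-14. It averaged 10.6 ± 2.75 TPM in yhp1-13A yox1-9A and 12.4 ± 3.22 TPM in wild type, and 13.5 ± 0.73 TPM in yhp1Δ yox1Δ and 11.8 ± 3.00 TPM in wild type (SD, n = 3 each). ASE1 (YOR058C, chromosome XV, 433688 to 436345, minus strand), whose promoter held both TAATTA matches, averaged 16.9 ± 3.59 TPM in yhp1-13A yox1-9A and 20.01 ± 3.18 TPM in wild type. In the deletion set ASE1 averaged 17.7 ± 1.43 TPM in yhp1Δ yox1Δ and 18.4 ± 2.92 TPM in wild type. The log2 changes of KAR3 were −0.20 in the double phosphomutant and 0.20 in the double deletion, those of ASE1 were −0.24 and −0.049 in the same strains, and none was called (limma adjusted p from 0.83 to 0.98).

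Of the 9 genes other than NDL1, 0 were called by limma at an adjusted p below 0.1 in the comparison of any mutant with wild type. Across all tested genes the share called was 0% in yhp1-13A, 0.285% in yox1-9A, 0.0158% in yhp1-13A yox1-9A, 0.634% in yhp1Δ yox1Δ, 0.127% in yhp1Δ and 0.364% in yox1Δ, so calls were rare throughout. At an unadjusted p below 0.05 the count was 1 of 9 in yox1-9A (CIN8), where 3.82% of all genes passed. It was 0 of 9 in the other 5 comparisons, where 1.06% passed in yhp1-13A, 2.64% in the double phosphomutant, 1.2% in yhp1Δ, 4.02% in yox1Δ and 3.71% in the double deletion. Limma-voom on the recovered fragments called 0 of 9 in each. A term for the common axis called CIN8 in yox1-9A, as given above. Mutant samples lay wholly on 1 side of wild type for 1 of the 9 in yhp1Δ yox1Δ (NUM1) and for 0 of 9 in the other 5 strains. Among all genes that share was 9.21% in yhp1Δ yox1Δ, 5.85% in yox1Δ, 3.04% in yhp1Δ, 4.51% in the double phosphomutant, 7.55% in yox1-9A and 3.36% in yhp1-13A.

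**Figure D3:**
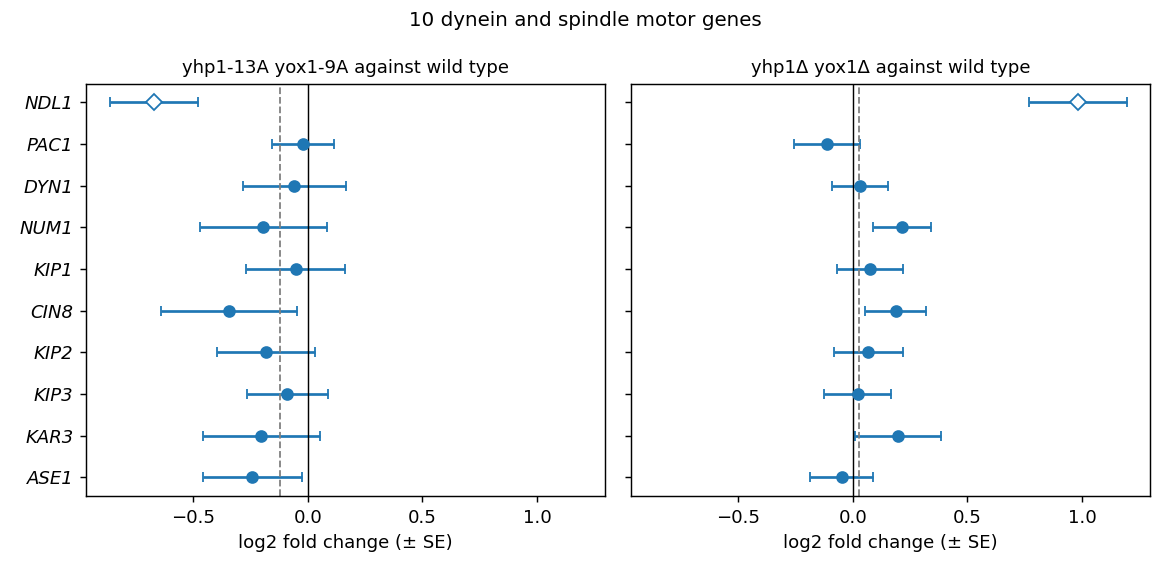
Fitted log2 fold change on the log2(TPM + 1) scale (horizontal axis) of the 10 genes in the double phosphomutant (left panel) and the double deletion (right panel) against wild type, with bars of 1 SE, the solid line at 0 and the dashed line at the median of all tested genes. NDL1, drawn as an open diamond because it was selected on these values, is at −0.67 and 0.98, and the other 9 lie between −0.34 and −0.021 and between −0.11 and 0.21.

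The intervals limit how far these 9 genes could have moved. In yhp1Δ yox1Δ the 95% intervals of the log2 change ran from −0.43 at the lowest to 0.60 at the highest, so each excluded a change of 2-fold in either direction. In yhp1-13A yox1-9A they ran from −0.99 to 0.43. The median log2 change of the 9 was −0.18 in the double phosphomutant, beside −0.12 over all tested genes, and 0.067 in the double deletion, beside 0.025. In yox1-9A it was −0.29, beside −0.083 over all genes.

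The double mutants were also compared with each single mutant, and 0 of the 9 were called by limma in these 4 comparisons, although a term for the common axis called NUM1 against yox1Δ. The share of all genes called was 0% against yhp1-13A, 0.348% against yox1-9A, 0.539% against yhp1Δ and 0.57% against yox1Δ. At an unadjusted p below 0.05 the count was 1 of 9 against yox1Δ, which was NUM1, beside 13.1% of all genes. It was 0 of 9 in the other 3, beside 0.76% against yhp1-13A, 4.16% against yox1-9A and 4.91% against yhp1Δ. The test of whether the double mutant departed from the sum of the single mutants called 0 of 9 in both sets, where 0.0317% of genes were called for the phosphomutants and 0.19% for the deletions, and 0 of 9 passed an unadjusted p of 0.05, beside 1.74% of genes for the phosphomutants and 6.51% for the deletions.

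Sample by sample, the genes often shared their high and low samples in the phosphomutant set. The third yox1-9A replicate was the lowest of the 12 samples for 8 of the 10 genes, and the second double mutant replicate was the lowest for the other 2, NDL1 and PAC1. The second wild-type replicate was the highest for 7 of the 10. On the common axis over all genes, where scores ran from −0.48 to 0.40, the third yox1-9A replicate was at −0.40. The second wild-type replicate was at 0.28 on it. The share of all genes with their extremes in the same samples was not counted, and the 10 include NDL1, which was selected on its level. Of the 9 genes other than NDL1, 7 were lower in yox1-9A than in wild type in all 3 same-numbered pairs, as were 38.6% of all genes, and PAC1 and ASE1 were not. Between yhp1Δ and wild type, whose numbers also paired, 1 of the 9 (PAC1) was lower in all 3 pairs, beside 12.8% of all genes. In yox1-9A all 10 fitted changes were below 0, as they were in the double phosphomutant, and 9 of the 10 were in yhp1-13A. The median over all genes was also below 0 in these strains, at −0.083, −0.12 and −0.11 in the same order. In yox1-9A, PAC1 and ASE1 turned positive under median-of-ratios scaling and without some samples. In the deletion set, the second yox1Δ replicate was the lowest for 5 genes, and the 3 double deletion samples were the lowest for none. On the common axis of that set the second yox1Δ replicate was at −0.26 and the double deletion samples at −0.0048, 0.038 and −0.033. The shares among all genes were not counted here either.

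**Figure D4:**
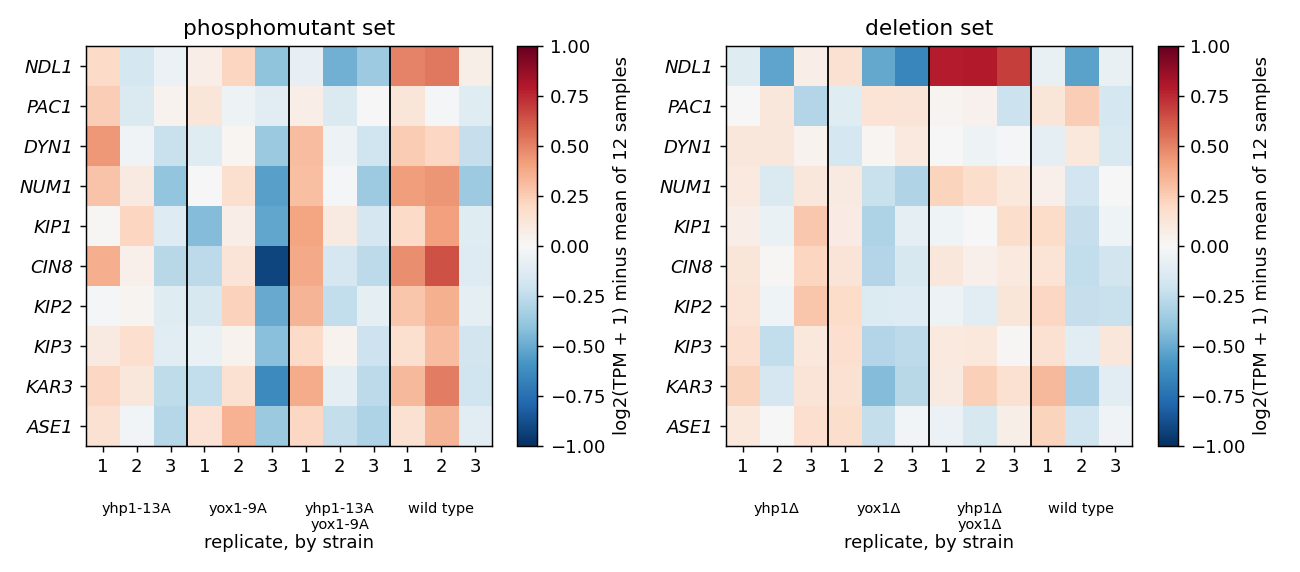
Expression of the 10 genes (rows) in each replicate (columns, grouped by strain) of the phosphomutant set (left panel) and the deletion set (right panel), as log2(TPM + 1) minus the mean of the 12 samples of the set, with red above and blue below that mean. In the left panel the third yox1-9A replicate is low for 8 of 10 genes, and in the right panel NDL1 has the strongest red in all 3 double deletion samples, where NUM1, CIN8 and KAR3 are also above their means.

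A wider set of 41 spindle genes gave 0 calls in either direction by limma in any of the 6 mutant strains. It held 8 dynein and dynactin genes, 3 kinesin partners, 6 plus-end and Kar9 pathway genes, 8 tubulin and gamma-tubulin complex genes, 6 spindle pole body genes and 10 genes of the DASH complex, which couples kinetochores to microtubules. Across all genes, 0% to 0.634% were called in the 6 mutant strains, so 0 calls among the 41 is close to that share. The median log2 change of the 41 was −0.20 in yhp1-13A yox1-9A, beside −0.12 over all genes, and 0.15 in yhp1Δ yox1Δ, beside 0.025. It was −0.19 in yhp1-13A (all genes −0.11) and −0.17 in yox1-9A (−0.083), and 0.020 in yhp1Δ (0.013) and −0.088 in yox1Δ (−0.037). The 8 other dynein and dynactin genes had a median of −0.23 in the double phosphomutant and 0.082 in the double deletion, where they ranged from −0.023 to 0.20.

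The cultures were asynchronous, so that a shift in cell cycle stage would move phase-specific transcripts. The median log2 change of 8 G2/M genes was −0.18 in the double phosphomutant (all genes −0.12) and 0.0052 in the double deletion (all genes 0.025). In the same order of strains it was −0.015 and −0.13 for 7 M/G1 genes, 0.024 and 0.048 for 7 G1/S genes, and −0.045 and 0.13 for 8 histone genes. None of these genes was called, beside 0.0158% of all genes in the double phosphomutant and 0.634% in the double deletion. The share of cells in each stage was not measured in these samples. In separate asynchronous cultures, the paper reported fewer G1 and more G2/M cells in the double phosphomutant than in wild type. The part of cell cycle stage in the NDL1 values was not tested.

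The genes whose log2(TPM + 1) followed NDL1 most closely over the 24 samples, with the mean of each set subtracted, were KIN3 (r = 0.92), the SWI/SNF subunit gene SNF6 (0.89), WTM2 (0.88), the mitotic exit regulator SPO12 (0.86) and PPN1 (0.86), of 6274 genes compared. These correlations are a description, since samples of 1 strain share their mutation and the double mutants set much of the pattern. KIN3, which encodes a protein kinase, averaged 13.2 ± 1.03 TPM in yhp1-13A yox1-9A and 27.1 ± 5.50 TPM in wild type, and 55.6 ± 1.79 TPM in yhp1Δ yox1Δ and 27.9 ± 5.37 TPM in wild type (SD, n = 3 each). PPN1, a polyphosphatase gene, is the direct neighbour of YHP1 on chromosome IV, with 696 bases between them. YHP1 was replaced or tagged in several of these strains, wild type included, and any effect of this on PPN1 was not tested. PPN1 averaged 58.8 ± 11.7 TPM in the double phosphomutant and 73.0 ± 10.9 TPM in wild type, and 92.1 ± 1.76 TPM in the double deletion and 62.1 ± 7.05 TPM in wild type. In the single mutants it averaged 61.3 TPM in yhp1-13A, 68.3 TPM in yox1-9A, 74.7 TPM in yhp1Δ and 65.0 TPM in yox1Δ.

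The other spindle genes followed NDL1 less closely. NUM1 had the highest correlation with NDL1 of the 9, at r = 0.66 and rank 838 of the 6274 genes, ahead of KAR3 at 0.65 and KIP3 at 0.60. CIN8 followed at 0.56, KIP2 at 0.45, ASE1 at 0.43 and KIP1 at 0.41. The dynein heavy chain DYN1 was at 0.16 and PAC1 at −0.18, the lowest of the 9.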

How the data were processed

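The authors aligned reads to yeast R64-1-1 with STAR (2.5.3a in the submitters' notes) and counted exonic fragments of mapping quality above 20 with featureCounts (1.5.2). They deposited TPM values per gene and sample, with gene lengths. The labels name poly-A depletion and the methods poly-A purification. The unused sample columns numbered 0.

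Values were analysed as log2(TPM + 1) with limma 3.58.1 in R 4.3.3. Each set of 12 samples was fitted with its 4 strains and no covariate, over genes averaging 1 TPM or more (6316 among phosphomutant samples and 6311 among deletion samples), with trended eBayes, two-sided tests and Benjamini-Hochberg adjustment over all of them. Calls were made at an adjusted p below 0.1. Whole fragments were recovered from TPM times length for 100% of values (tolerance 0.02) in every sample, and limma-voom was run on them as an alternative. Deposited replicates are biological, and p-values measure the spread between them.

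The genes named are the 10 members and, without a test, the 5 genes most correlated with NDL1. Members and lists were chosen with earlier results of these data known. Replicate numbers were taken to pair samples where the 3 same-numbered pairs all correlated above 0.1 in their deviations from the strain means. This held for yox1-9A and wild type (r 0.52 to 0.83), yhp1Δ and wild type (0.48 to 0.75), yhp1-13A and yox1-9A (0.12 to 0.65), and yhp1-13A yox1-9A and yhp1-13A (0.43 to 0.72), and not for the other pairs of strains. Gene positions and promoters came from the RefSeq R64 sequence, to which 6048 of the 7126 identifiers matched, 94.4% with the same length. The procedure was tested on simulated data in which each gene varied on its own. The common axis was absent from them, so this does not show how the tests behave under it. Alternatives were another pseudocount, expression filter or scaling, limma-voom, a replicate block, a term for the sign of the common axis, and leaving out each sample.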

Additional observations from a re-analysis of the deposited data

How the results depend on the processing

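Among the 9 genes tested, the count called stayed at 0 in all 12 comparisons under a pseudocount of 0.1, other expression filters, median-of-ratios scaling, an untrended eBayes, limma-voom, a fit of only the 2 groups compared (10 comparisons) and the replicate block (0 of 9 in each comparison with the replicate block). The filter at a mean of 10 TPM removed DYN1 from both sets and KIP1 from the phosphomutant set, so these were not tested under it. A term for the sign of the common axis called 1 of 9 in 2 comparisons. These were CIN8 in yox1-9A against wild type (log2 change −0.67, adjusted p = 0.049) and NUM1 in yhp1Δ yox1Δ against yox1Δ (0.31, adjusted p = 0.074). The same term raised the number of calls over all genes to 104 and 1017 in those comparisons, its sign was taken from the same samples, and the cause was not tested. Over 594 alternative fits of single genes against wild type, the lowest adjusted p was this 0.049 and the next was 0.177. With each sample left out in turn, the count called stayed at 0 of 9.

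NDL1 was selected on its levels in both double mutants, so the sign it kept there is no independent evidence of direction. Without each sample in turn its log2 change ran from −0.82 to −0.58 in yhp1-13A yox1-9A and from 0.83 to 1.06 in yhp1Δ yox1Δ, and under the other settings from −0.69 to −0.53 and from 0.96 to 1.13. Its small change turned sign in yhp1Δ (−0.12 to 0.20 with 1 sample left out) and in yox1Δ (−0.36 to 0.045).

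None of the 9 was called in those comparisons, and small log2 changes against wild type turned sign for some. Under median-of-ratios scaling the changes became DYN1 0.081 and KIP3 0.062 in yhp1-13A, PAC1 0.090 and ASE1 0.0076 in yox1-9A, PAC1 0.11, DYN1 0.054, KIP1 0.066 and KIP3 0.036 in yhp1-13A yox1-9A, PAC1 0.019, CIN8 0.024 and ASE1 0.0089 in yox1Δ. With a term for the common axis the changes became DYN1 0.13, NUM1 0.024 and KIP3 0.046 in yhp1-13A, PAC1 0.042, DYN1 0.090, NUM1 0.0024, KIP1 0.045 and KIP3 0.0068 in yhp1-13A yox1-9A, DYN1 −0.016, CIN8 0.047 and ASE1 0.024 in yox1Δ, DYN1 −0.015 and ASE1 0.00076 in yhp1Δ yox1Δ. With each sample left out in turn, the lowest and highest values of those that turned are given by strain. In yhp1-13A they were PAC1 −0.050 to 0.14, DYN1 −0.21 to 0.12, NUM1 −0.44 to 0.022 and KIP3 −0.19 to 0.057. In yox1-9A they were PAC1 −0.071 to 0.059 and ASE1 −0.24 to 0.12. In yhp1-13A yox1-9A they were PAC1 −0.079 to 0.043, DYN1 −0.21 to 0.053, KIP1 −0.20 to 0.086 and KIP3 −0.23 to 0.017. In yhp1Δ they were NUM1 −0.0041 to 0.15, KIP3 −0.13 to 0.083, KAR3 −0.045 to 0.28 and ASE1 −0.0020 to 0.21. In yox1Δ they were PAC1 −0.13 to 0.076, DYN1 −0.029 to 0.11, KIP1 −0.18 to 0.031, CIN8 −0.13 to 0.11, KIP2 −0.049 to 0.20, KAR3 −0.32 to 0.033 and ASE1 −0.13 to 0.089. In yhp1Δ yox1Δ they were DYN1 −0.020 to 0.11, KIP1 −0.025 to 0.18, KIP2 −0.0062 to 0.21, KIP3 −0.061 to 0.073 and ASE1 −0.15 to 0.065. Comparisons of the double with the single mutants were repeated under every setting for the count of calls and for NDL1, and a fit of only 2 groups does not exist for the departure from the sum of the single mutants. Each gene rested on at least 292 fragments per sample.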
